A study of Mus musculus with 27 samples.

Results

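Secreted cytokines of the interleukin-6, interleukin-10 and colony-stimulating groups were followed in RAW264.7 cells, an established mouse macrophage line. The members were the rows of the deposited count table with the symbols Il6, Il10, Il27, Ebi3, Il12b, Il23a, Csf2, Csf3, Lif and Osm, which are 10 of its 55483 genes. Cells were held for 6 h in DMSO, the solvent (called DMSO here), in DMSO with LPS, the bacterial lipopolysaccharide, at 1 µg/ml (called LPS), or in LPS together with TM7nox, a tanshinone mimic given at 10 µM (called LPS+TM7nox). Tanshinone mimics are small molecules aimed at HuR, an RNA-binding protein, and no group used here received TM7nox without LPS. Each treatment had 4 libraries of total RNA, 4 of RNA recovered with an anti-HuR antibody (ribonucleoprotein immunoprecipitation, RIP) and 1 of RNA recovered with control IgG, which is replicate 3. The labels number the replicates but do not say whether they were separate cultures, so p-values measure the spread between these samples, which may be technical.

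The members are signals that macrophages release when a receptor for bacterial products is engaged. Interleukin-6, leukaemia inhibitory factor (Lif) and oncostatin M (Osm) signal through receptors that share the gp130 chain, and interleukin-27 is a pair made of the products of Il27 and Ebi3. Il12b encodes the p40 chain that interleukin-12 and interleukin-23 share, and Il23a encodes the p19 chain of interleukin-23. Il10 encodes an anti-inflammatory cytokine that acts through STAT3, and Csf2 (GM-CSF) and Csf3 (G-CSF) drive the formation and activity of granulocytes and macrophages. Messenger RNAs of this kind are typically short-lived. Their 3′ untranslated regions often hold AU-rich stretches, to which proteins such as HuR (encoded by Elavl1) and tristetraprolin (encoded by Zfp36) bind.

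AU-rich pentamers, written ATTTA in the genome, were present in the annotated 3′ untranslated region of all 10 members, in 1 copy in Ebi3, 9 in Csf2 and 5 to 7 in the others. Among 20267 coding genes with a 3′ untranslated region of at least 50 bases, 68.7% held ATTTA and 30.1% held the longer TATTTAT, which was found in 9 members and not in Ebi3. Per kilobase the pentamer was most frequent in Csf2 (28.4), above 99.95% of these regions, while Lif, with a region of 3180 bases, had 2.20. The windows below are the 30 bases richest in the pentamer in some of the members. They run in the direction of the transcript on GRCm39, with each pentamer in capitals. The choice of members does not follow the RIP calls. With TM7nox in the RIP, Ebi3 and Il10 were called and are not shown, while Il6, Csf2 and Lif were not called. A match describes the letters only and is not evidence of a bound site.
Lif (chr11:4222414-4222443, plus strand): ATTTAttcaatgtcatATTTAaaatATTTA
Osm (chr11:4190944-4190973, plus strand): gttttatATTTAtaaggcctATTTAtaatg
Csf3 (chr11:98593813-98593842, plus strand): agtttATTTAtctctATTTAatATTTAtgc
Il27 (chr7:126188260-126188289, minus strand): agatATTTAtttcttggatATTTATTTAtt
Csf2 (chr11:54138151-54138180, minus strand): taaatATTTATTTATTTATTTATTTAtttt
Il6 (chr5:30224718-30224747, plus strand): taagttaATTTAtgattgatATTTAttatt

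All members lie on GRCm39 as single annotated genes, 5 of them on chromosome 11. Il6 spans chr5:30218112-30224979, Il10 chr1:130947581-130952711, Il27 chr7:126188181-126194209, Ebi3 chr17:56259270-56264023 and Il23a chr10:128132008-128134621. Il12b spans chr11:44290808-44305505, Csf2 chr11:54138097-54140493 and Csf3 chr11:98592089-98594458. Osm (chr11:4186420-4191026) and Lif (chr11:4207557-4222514) lie side by side on the same strand with 16530 bases between them. Genes annotated on the opposite strand overlap Il6 (Gm42450), Il27 (Apobr), Ebi3 (Gm16712), Csf2 (Gm57329) and Csf3 (Gm38985). Whether the counting used the strand is not given in the sources used here, so reads in those overlaps could belong to either gene.

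Promoter windows in the RefSeq table, on build GRCm38.p6, were found for 5 members (Il6, Ebi3, Il12b, Csf2 and Lif). They run from 250 bases before to 50 bases after the gene's start. A site for the inflammatory transcription factor NF-kappaB, searched as GGGANTTTC on both strands, was found in Il6 alone of these 5, and in 1.11% of all 32851 windows. The Il6 window is shown because it holds this match, in capitals, which starts 44 bases before the gene's start.
Il6 promoter (chr5:30012864-30013163, plus strand): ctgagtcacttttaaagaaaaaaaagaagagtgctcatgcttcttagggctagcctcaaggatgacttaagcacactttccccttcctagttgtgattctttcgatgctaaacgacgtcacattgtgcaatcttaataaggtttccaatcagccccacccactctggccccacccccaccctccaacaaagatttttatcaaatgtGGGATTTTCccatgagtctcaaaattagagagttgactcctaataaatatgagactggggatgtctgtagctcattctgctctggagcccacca

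The RNA libraries held 2.73 to 28.3 M counts, the RIP libraries 19.8 to 41.4 M and the IgG libraries 8.87 to 24.5 M. The lowest of these, 2.73 M, was RNA DMSO replicate 1. All 8 macrophage markers were detected. Summed over a library, in CPM (counts scaled to library size, on 1 scale over the 27 libraries), they ranged from 5287 to 6554 under DMSO, from 4808 to 6791 under LPS, and from 3440 to 6233 when TM7nox was present. The 16 markers of 5 other kinds of cell summed to at most 0.340 CPM per kind in any RNA library, and 4 of them were at 0 throughout. In bulk libraries such as these, fewer producing cells and less RNA per producing cell cannot be told apart.

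In total RNA, 9 of the 10 cytokine genes were higher in LPS than in DMSO, and all of their LPS libraries lay above all of their DMSO libraries. The share of all genes whose groups separate in this way was not counted, here or in later comparisons, so separation describes these members only. Genes are named as called where edgeR's quasi-likelihood test gave an adjusted p under 0.05, and 20.2% of the 12369 genes tested were called higher and 21.7% lower. Il12b did not pass the filter on low counts. Of the 9 members tested, all but Osm passed that filter through their LPS or LPS+TM7nox libraries. The count of 9 was therefore bound to be high and is given as a description.

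Csf3, Il27 and Il6 went from near 0 to some of the largest changes among the members. Csf3 stood at 0.424, 0.412, 0.997 and 0.0329 CPM in DMSO (replicates 1 to 4) and at 411, 408, 477 and 467 CPM in LPS, a log2 fold change of 9.82 (SE 0.499, adjusted p = 4.41e-09). The 4 LPS libraries were close together and far from DMSO. Il27 went from 0, 0.515, 0.772 and 0.296 CPM to 226, 343, 383 and 352 CPM, a log2 fold change of 9.34 (SE 0.508, adjusted p = 7.55e-09). Il6 was at 0.212, 0, 0.225 and 0 CPM in DMSO, 8 counts in all, and at 12.1, 42.2, 81.7 and 77.8 CPM in LPS. Replicate 1 was the lowest of the LPS libraries for Il6, and the spread was wide (53.5 ± 32.8 CPM, SD, n = 4). Its log2 fold change was 9.33 (SE 1.08, adjusted p = 9.55e-06). The DMSO values rest on few counts. The Il6 estimate became 11.48 without RNA DMSO replicate 3 and 8.69 without replicate 2. That of Csf3 became 10.72 without RNA DMSO replicate 3.

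Csf2 had 0 counts in all 4 DMSO libraries of total RNA, so its change can only be bounded. In LPS it stood at 3.76, 4.74, 14.6 and 13.9 CPM, 1107 counts in all, which is at least 335-fold higher than a floor of 3 counts over the DMSO group (adjusted p = 9.00e-05). Replicates 3 and 4 were both above replicates 1 and 2. Lif likewise had replicates 3 and 4 above 1 and 2, with 83.6, 51.5, 210 and 189 CPM in LPS against 2.12, 0.412, 3.83 and 0.197 in DMSO. Its log2 fold change was 6.42 (SE 0.952, adjusted p = 9.12e-05), and 8.09 without RNA DMSO replicate 3. Il10 had replicates 1 and 2 above 3 and 4 in LPS, at 38.9, 31.1, 21.9 and 22.5 CPM, against 0.636, 0.154, 0.0643 and 0.197 in DMSO (log2 fold change 7.38, SE 0.486, adjusted p = 4.20e-08).

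Osm, Il23a and Ebi3 had the smallest changes. Osm, which was already present in DMSO at 1.70, 1.08, 0.901 and 1.12 CPM, stood at 16.3, 12.5, 25.04 and 26.6 CPM in LPS (log2 fold change 4.18, SE 0.383, adjusted p = 1.05e-06). Ebi3, the partner of Il27, went from 0.212, 2.09, 1.96 and 1.74 CPM to 6.97, 10.8, 10.9 and 11.01 CPM, a log2 fold change of 2.51 (SE 0.301, adjusted p = 1.38e-05). Both genes of interleukin-27 were thus higher, by very different factors. Il23a remained scarce, with 6 counts in DMSO and 97 in LPS, at 0.128, 0.516, 1.48 and 1.09 CPM in LPS (log2 fold change 3.70, SE 0.888, adjusted p = 0.00388). With replicates 1 and 2 alone it was not called (adjusted p = 0.254). Il12b had 0 counts in DMSO and 7 in LPS over 4 libraries each, so the p40 chain was barely detected at this depth in these cells.

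**Figure D1:**
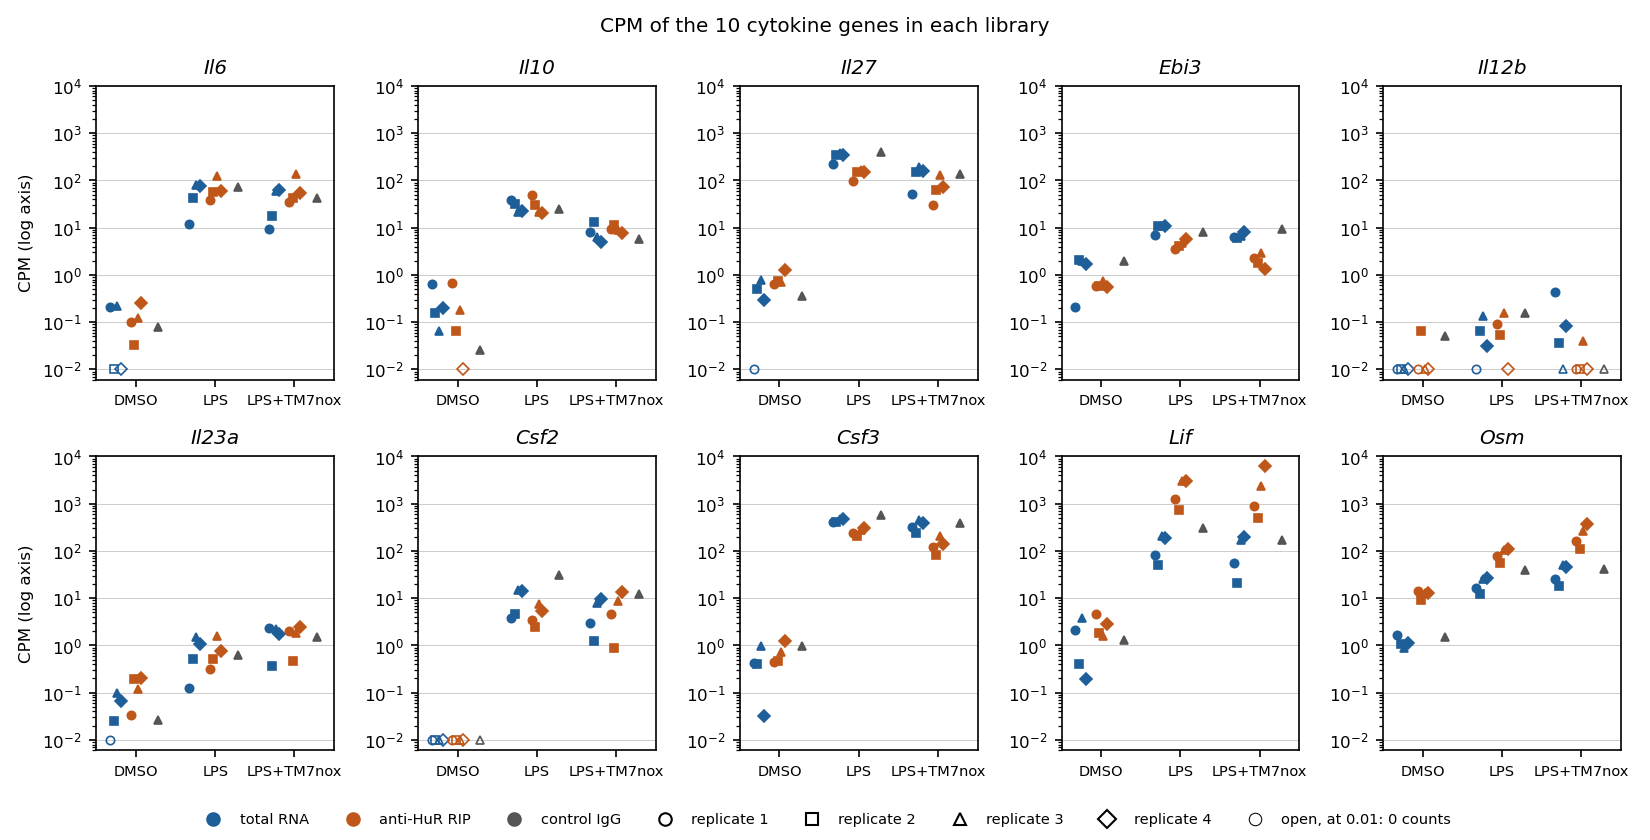
CPM (log axis) of each cytokine gene in every library by treatment, for total RNA, anti-HuR RIP and control IgG. Marker shapes are replicates 1 to 4, and open markers at 0.01 are libraries with 0 counts. Csf2 has 0 counts in every DMSO library, and Lif and Osm lie higher in RIP than in RNA under LPS.

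Levels were compared between genes as CPM per kilobase of exon. In LPS total RNA, Csf3 (311 ± 25.8 CPM per kb, SD, n = 4) and Il27 (292 ± 61.4) came first and overlapped each other. Both lay above Lif (29.0 ± 16.9), Il6 (22.0 ± 13.5), Il10 (21.8 ± 6.16), Csf2 (11.6 ± 7.26) and Osm (8.85 ± 3.0003), whose neighbours in that order all overlapped. Ebi3 (4.60 ± 0.910) lay below its neighbour Osm, but its highest library (5.11) was above the lowest of Csf2 (4.70) and of Il6 (4.97). Il23a (0.357 ± 0.266) and Il12b (0.0212 ± 0.0215) each lay apart below. Il27 was therefore far above Ebi3 although their products pair. In the anti-HuR RIP the order was another: Lif came first (437 ± 258), overlapping Csf3 (184 ± 30.1), which overlapped Il27 (127 ± 27.1), and Osm (38.2 ± 10.99) came next. With TM7nox added, Lif (555 ± 586) and Osm (101 ± 51.5) were first and second by their means in RIP. Csf3 (97.9 ± 36.2) followed, and each overlapped the next. The means of Lif and Osm lean on replicate 4, at 1393 and 166 CPM per kb, against at most 519 and 117 in the other replicates. In DMSO RNA all neighbours overlapped, and none of the genes exceeded a mean of 0.696 CPM per kb, which was the value of Ebi3.

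**Figure D2:**
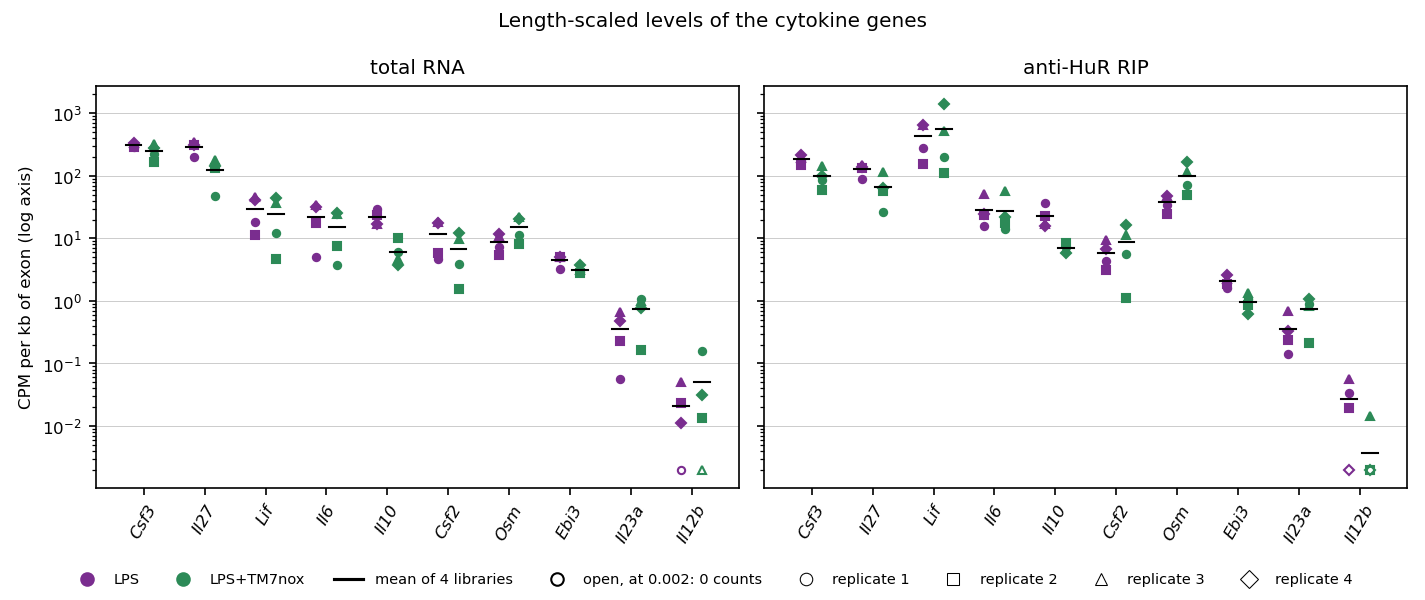
CPM per kilobase of exon (log axis) in LPS and LPS+TM7nox for total RNA (left) and anti-HuR RIP (right), with genes in the order of their mean in LPS total RNA. Points are libraries, bars are means of 4, and open points at 0.002 are 0 counts. Csf3 and Il27 lead in RNA and Lif leads in RIP.

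With TM7nox added to LPS, Il10 and Il27 were lower in total RNA than with LPS alone, and no member was called higher. Il10 stood at 7.97, 13.1, 6.23 and 4.93 CPM with TM7nox, below all 4 LPS libraries and lower in 4 of 4 same-numbered pairs, and it fell by 1.82 on the log2 scale (SE 0.315, adjusted p = 0.00152). Il27 stood at 52.9, 149, 197 and 162 CPM, also below every LPS library, and fell by 1.21 (SE 0.329, adjusted p = 0.0250). Of all genes tested, 7.37% were called higher and 6.40% lower in this comparison, against 0 and 2 of the 9 members. It shares the LPS libraries with LPS against DMSO. The Il27 call was lost without RNA LPS replicate 2 (adjusted p = 0.0609), 3 (0.0635) or 4 (0.0571) or RNA LPS+TM7nox replicate 2 (0.0517), with values of −1.24 to −1.12. With replicates 1 and 2 alone neither gene was called (Il10 −1.73, adjusted p = 0.0654; Il27 −1.49, adjusted p = 0.197).

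The other members were not called, and several moved alike in all same-numbered pairs. Osm stood at 25.3, 18.5, 50.4 and 45.7 CPM with TM7nox, above its same-numbered LPS library in 4 of 4 pairs, with overlapping groups (log2 fold change 0.80, SE 0.302, adjusted p = 0.0995). Il6 stood at 9.23, 18.1, 59.0 and 61.7 CPM, below its same-numbered LPS library in 4 of 4 pairs, but the groups overlapped widely (log2 fold change −0.52, SE 0.596, adjusted p = 0.648). The Csf2 libraries, at 3.06, 1.248, 7.78 and 9.86 CPM, were lower in 4 of 4 pairs (log2 fold change −0.75, SE 0.604, adjusted p = 0.493). When the replicate number was included as a block, which compares same-numbered libraries, Osm (0.77, adjusted p = 0.00902), Csf2 (−0.87, adjusted p = 0.0404) and Il6 (−0.60, adjusted p = 0.0471) were called, and the members called went from 2 to 5. Osm was also called without RNA LPS+TM7nox replicate 2 (1.01, adjusted p = 0.0315).

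For Ebi3, Csf3, Lif and Il23a the groups overlapped and no difference was called. Ebi3 and Csf3 were lower in 4 of 4 same-numbered pairs and Lif in 3 of 4. Ebi3, at 6.22, 5.95, 6.71 and 8.20 CPM, had a log2 fold change of −0.55 (SE 0.273, adjusted p = 0.227), which was called only without RNA DMSO replicate 1 among the single libraries left out (−0.55, adjusted p = 0.0436), and with replicates 3 and 4 alone (−0.54, adjusted p = 0.0242). Csf3, at 318, 238, 464 and 401 CPM, had −0.31 (SE 0.314, adjusted p = 0.598). Lif, at 56.6, 21.4, 170 and 202 CPM, had −0.24 (SE 0.701, adjusted p = 0.875). Il23a, at 2.38, 0.367, 2.21 and 1.74 CPM, had a log2 fold change of 1.05 (SE 0.636, adjusted p = 0.332) and was higher in 3 of 4 pairs. Il12b had 12 counts, 9 of them in replicate 1.

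**Figure D3:**
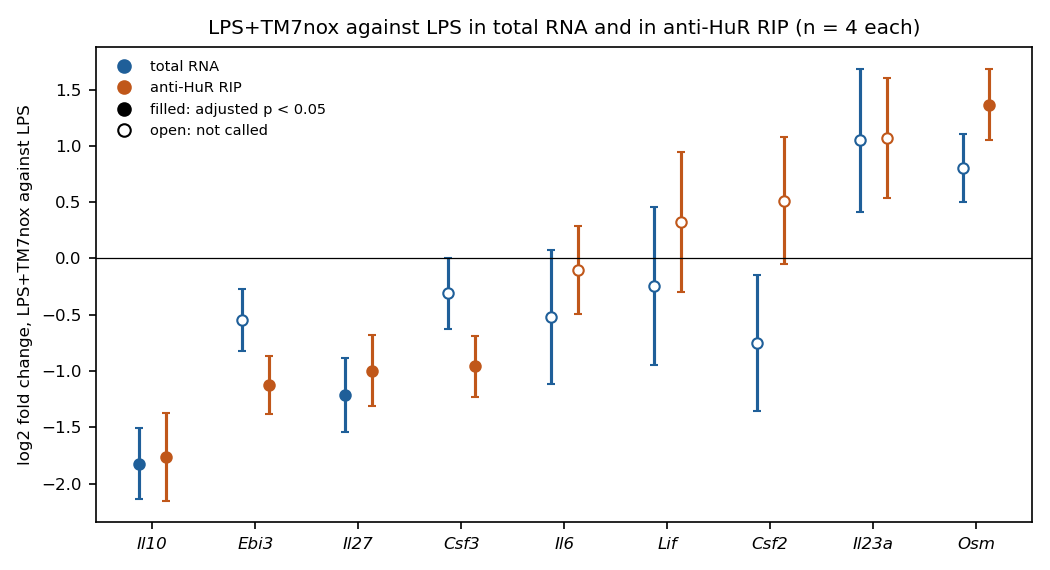
Log2 fold change of LPS+TM7nox against LPS for 9 cytokine genes in total RNA and in anti-HuR RIP, from 4 libraries a group, with bars of 1 SE. Filled points passed an adjusted p of 0.05: Il10 and Il27 fell in both assays, Ebi3 and Csf3 fell in RIP, and Osm rose in RIP.

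Against DMSO, the LPS+TM7nox libraries of total RNA were still higher for all 9 members tested, with no overlap between groups, while 23.7% of all genes were called higher, with the limit from the filter given above. Il10 had a log2 fold change of 5.55 (SE 0.485, adjusted p = 5.82e-07) here and Il27 8.13 (SE 0.492, adjusted p = 2.55e-08). Csf2 was at least 196-fold higher than the floor of 3 counts over the DMSO group. With no filter on low counts Il12b, with 0 counts in DMSO and 12 in LPS+TM7nox, was called as well, which made 10 members. These folds share the DMSO libraries with those of LPS. They moved in the same way with single DMSO libraries: without RNA DMSO replicate 3, Il6 went from 8.81 to 10.96, Lif from 6.18 to 7.85 and Csf3 from 9.51 to 10.41, and without replicate 2 Il6 was 8.17. Il23a (4.75) was not called with replicates 1 and 2 alone (adjusted p = 0.0624).

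RNA recovered with anti-HuR showed the same 9 members higher in LPS than in DMSO, again without overlap, where 23.5% of 13614 genes were called higher. In the RIP, too, Csf2 (0 counts over the 4 DMSO libraries), Il6 (13), Il23a (15) and Il10 (28) passed the filter through the LPS or LPS+TM7nox libraries, so counts of members against DMSO were bound to be high and are a description. Lif went from 4.67, 1.85, 1.61 and 2.91 CPM to 1283, 724, 3017 and 3026 CPM (log2 fold change 9.48, SE 0.902, adjusted p = 4.87e-07). Replicates 3 and 4 were again the high ones. Osm went from 14.0, 9.06, 12.8 and 13.01 CPM to 76.6, 56.1, 106 and 108 CPM (log2 fold change 2.80, SE 0.332, adjusted p = 5.50e-06). Csf2 was at 0 counts in all DMSO RIP libraries and at least 175-fold higher in LPS than the floor of 3 counts over the group. The other members were at 1.26 CPM or lower in every DMSO library of the RIP, and their log2 fold changes were 9.12 for Il6, 8.52 for Csf3, 7.42 for Il27, 6.91 for Il10, 2.83 for Ebi3 and 2.46 for Il23a. Without RIP DMSO replicate 1 that of Il10 was 8.19.

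In the RIP, 5 members were called between LPS+TM7nox and LPS, with Osm higher and Il10, Ebi3, Csf3 and Il27 lower. Among all genes, 8.64% were called higher and 7.61% lower in this comparison. Osm stood at 163, 112, 266 and 377 CPM, above every LPS library, and rose by 1.36 on the log2 scale (SE 0.314, adjusted p = 0.00774). Il10 stood at 9.59, 11.2, 8.75 and 7.56 CPM against 48.5, 29.9, 21.9 and 21.0 CPM in LPS and fell by 1.76 (SE 0.389, adjusted p = 0.00588). The groups of both genes did not overlap.

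Ebi3, Csf3 and Il27 also fell in the RIP. Ebi3 went from 3.47, 4.04, 4.82 and 5.68 CPM in LPS to 2.29, 1.83, 2.88 and 1.35 CPM (log2 fold change −1.13, SE 0.258, adjusted p = 0.00757). Csf3 went from 246, 210.3, 276 and 310.5 CPM to 123, 83.5, 207 and 141 CPM (log2 fold change −0.96, SE 0.269, adjusted p = 0.0231). The libraries of both genes were separate between the groups. Il27 went from 98.3, 149, 168 and 154 CPM to 30.1, 63.5, 130 and 71.2 CPM, with overlap, and fell in 4 of 4 pairs (log2 fold change −0.997, SE 0.317, adjusted p = 0.0416). The Il27 call was near the threshold. It was lost without RIP LPS replicate 2, 3 or 4, RIP LPS+TM7nox replicate 1, 2 or 4, or RIP DMSO replicate 3, with values of −0.99 to −0.73 and adjusted p-values of 0.0519 to 0.107. The call of Csf3 was lost without RIP LPS+TM7nox replicate 1 (adjusted p = 0.0520) or 2 (0.0721) or RIP LPS replicate 4 (0.0624), with values of −0.90 to −0.76. With replicates 1 and 2 alone Ebi3 (−0.89, adjusted p = 0.175) and Osm (1.02, adjusted p = 0.0642) were not called, and with 3 and 4 alone Ebi3 (−1.27, adjusted p = 0.0570), Csf3 (−0.77, adjusted p = 0.106) and Il27 (−0.69, adjusted p = 0.167) were not. Il27 was also not called with the DMSO libraries left out of the fit (−0.99, adjusted p = 0.0617).

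Il6, Lif, Csf2 and Il23a were not called in the RIP. Il6 stood at 38.0, 58.0, 123 and 58.7 CPM in LPS and 34.3, 42.0, 137 and 54.1 CPM with TM7nox (log2 fold change −0.10, SE 0.387, adjusted p = 0.888). Lif, at 911, 506, 2393 and 6417 CPM with TM7nox, was lower than its same-numbered LPS library in replicates 1 to 3 and higher in replicate 4 (log2 fold change 0.32, SE 0.620, adjusted p = 0.771). Without RIP LPS+TM7nox replicate 4 the Lif value was −0.72. Csf2 went from 3.42, 2.47, 7.46 and 5.45 CPM to 4.54, 0.881, 8.91 and 13.3 CPM (log2 fold change 0.51, SE 0.564, adjusted p = 0.583). Il23a went from 0.324, 0.525, 1.55 and 0.753 CPM to 2.00, 0.474, 1.88 and 2.43 CPM (log2 fold change 1.07, SE 0.537, adjusted p = 0.192). Against DMSO, all 9 members tested were higher in the RIP of LPS+TM7nox, where 25.1% of all genes were called higher, with the same limit from the filter. Csf2 was at least 248-fold higher than the floor of 3 counts over the DMSO group. The log2 fold changes of the other 8 ranged from 1.71 for Ebi3 to 9.80 for Lif. That of Lif was 8.73 without RIP LPS+TM7nox replicate 4, and that of Il10 went from 5.15 to 6.44 without RIP DMSO replicate 1.

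Recovery by anti-HuR was then compared with total RNA within each treatment, as a ratio relative to the typical gene. In LPS, Lif and Osm were higher in RIP than in RNA, and Ebi3, Il27 and Csf3 were lower. Lif had a log2 ratio of 3.897 (SE 0.815, adjusted p = 0.000190), between 3.81 and 4.00 in the 4 same-numbered pairs. Osm had 2.10 (SE 0.341, adjusted p = 8.01e-06), between 2.02 and 2.23. The pairs lay much closer together than the levels themselves, which for Lif in RIP ranged from 724 to 3026 CPM. Il27 had −1.20 (SE 0.363, adjusted p = 0.00556), with all 4 pairs between −1.20 and −1.19, and Ebi3 had −1.15 (SE 0.283, adjusted p = 0.00106), between −1.40 and −0.95. Csf3 had −0.76 (SE 0.321, adjusted p = 0.0422), between −0.95 and −0.59. With replicates 1 and 2 alone Ebi3 (−1.27, adjusted p = 0.0673) and Il27 (−1.23, adjusted p = 0.0585) were not called.

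Calls of this kind were common: 32.9% of 14311 genes were called higher and 30.8% lower in LPS, against 2 and 3 of the 9 members. Il6 (0.35, SE 0.547, adjusted p = 0.596), Il10 (0.11, SE 0.360, adjusted p = 0.807), Il23a (−0.07, SE 0.632, adjusted p = 0.930) and Csf2 (−1.003, SE 0.650, adjusted p = 0.185) were not called. Their pairs spanned −0.41 to 1.65 for Il6 and −0.10 to 0.32 for Il10. Csf2 was lower in RIP in 4 of 4 pairs and was called with the replicate block (−0.89, adjusted p = 0.0194). The call of Csf3 was lost with another scaling, the size factors of DESeq2 in edgeR (−0.59, adjusted p = 0.105), with DESeq2 itself (−0.59, adjusted p = 0.199) and with replicates 3 and 4 alone (−0.72, adjusted p = 0.119). It was also lost without RIP LPS replicate 1, 2 or 3 or RNA LPS replicate 2, 3 or 4 (−0.79 to −0.66, adjusted p = 0.0546 to 0.107). That scaling moved the median log2 ratio of all genes from −0.06 to 0.11 in LPS, from 0.04 to 0.19 in DMSO and from −0.09 to 0.13 in LPS+TM7nox, and no called direction among the members changed with it.

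In LPS+TM7nox the same 5 members were called in the same directions. Lif had a log2 ratio of 4.46 (SE 0.837, adjusted p = 4.38e-05) and Osm 2.67 (SE 0.347, adjusted p = 2.28e-07). Ebi3 had −1.70 (SE 0.298, adjusted p = 1.77e-05), Csf3 −1.40 (SE 0.326, adjusted p = 0.000490) and Il27 −0.999 (SE 0.362, adjusted p = 0.0169). Of all genes, 35.2% were called higher and 34.8% lower. The value of Lif was 3.502 without RIP LPS+TM7nox replicate 4. Il27 lost its call when RIP LPS+TM7nox replicate 1 (−0.65, adjusted p = 0.0911) or 2 (−0.85, 0.0577) or RNA LPS+TM7nox replicate 3 (−0.76, 0.0805) was left out, and with DESeq2's size factors (−0.77, adjusted p = 0.0536). It was also lost with DESeq2 (−0.77, adjusted p = 0.0643), with replicates 1 and 2 alone (−1.16, adjusted p = 0.0677) and with only the 2 groups compared in the fit (−0.82, adjusted p = 0.0917). Il6 (0.77, adjusted p = 0.217) was called with the replicate block (0.97, adjusted p = 0.00429).

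In DMSO, where most members were near 0, Osm was higher in RIP (log2 ratio 3.56, SE 0.411, adjusted p = 3.22e-08) and Ebi3 lower (−1.37, SE 0.329, adjusted p = 0.000693), among 37.0% of genes called higher and 33.4% lower. The Ebi3 pairs were 1.17 in replicate 1 and −1.68, −1.34 and −1.53 in replicates 2 to 4, and with replicates 1 and 2 alone it was not called (−1.26, adjusted p = 0.101). Osm was therefore called higher in RIP than in RNA in each treatment, with same-numbered pairs between 2.98 and 3.72 in DMSO and between 2.40 and 3.04 in LPS+TM7nox. Lif in DMSO had 0.94 (SE 0.879, adjusted p = 0.345), with pairs from −1.21 to 3.43. Without RNA DMSO replicate 3 both Lif (2.54, adjusted p = 0.0431) and Csf3 (1.498, adjusted p = 0.0180) were called, and the members called went from 2 to 4. Il27 (0.80, adjusted p = 0.194) was called with the replicate block (0.96, adjusted p = 0.0262). Csf2 had no counts in either assay, so no ratio could be formed.

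**Figure D4:**
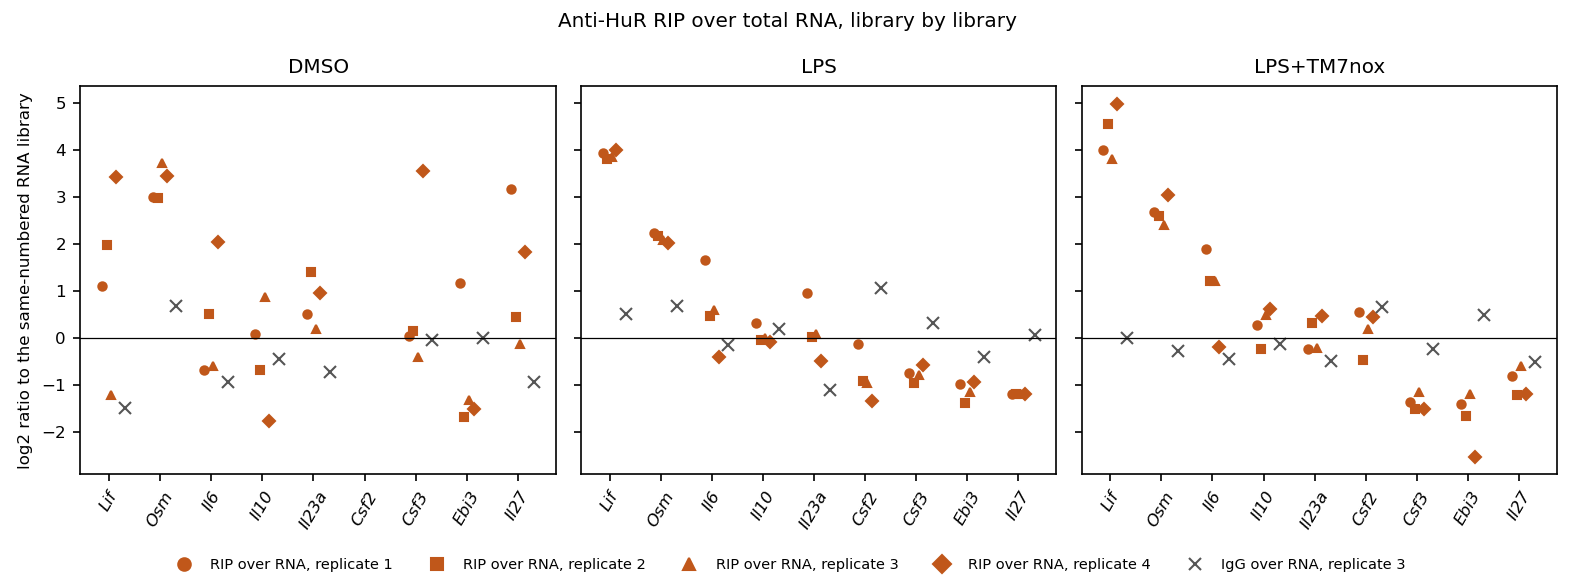
Log2 ratio of anti-HuR RIP to the same-numbered total RNA library by gene and treatment (log2 CPM with a prior count of 2). Marker shapes are replicates and crosses are control IgG over RNA in replicate 3. In LPS the 4 pairs of Lif lie between 3.81 and 4.00 and those of Osm between 2.02 and 2.23. Csf2 in DMSO has no value.

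Control IgG shows what is recovered without the anti-HuR antibody. In LPS, the IgG library held 299.98 CPM of Lif (95% exact Poisson interval 294 to 306) and 40.1 CPM of Osm (37.9 to 42.4). Both values were above all 4 RNA libraries of LPS, which reached 210 CPM for Lif and 26.6 CPM for Osm. All 4 RIP libraries lay higher still, for Lif from 724 CPM and for Osm from 56.1 CPM. For Csf2 the IgG library held 30.7 CPM (28.8 to 32.7), above all 4 RIP libraries and all 4 RNA libraries in LPS. Csf3 at 591 CPM (582 to 599) and Il27 at 401 CPM (394 to 408) were likewise above every RIP and RNA library of LPS. With TM7nox the IgG library held 171 CPM of Lif (163 to 178) and 41.5 CPM of Osm (37.9 to 45.4), below all 4 RIP libraries of each. For Csf2 it held 12.3 CPM (10.4 to 14.5), within the range of the RIP libraries. In DMSO the IgG library held 1.48 CPM of Osm (1.12 to 1.92), below all 4 RIP libraries, and 1.95 CPM of Ebi3 (1.53 to 2.44), above all 4. These intervals cover counting error only.

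Over the 3 treatments together, with treatment as a covariate, Lif (log2 fold change 2.57, SE 0.694, adjusted p = 0.00289) and Osm (2.05, SE 0.371, adjusted p = 5.03e-05) were higher with anti-HuR than with IgG. Ebi3 (−1.52, SE 0.230, adjusted p = 5.63e-06), Csf2 (−1.96, SE 0.529, adjusted p = 0.00367), Csf3 (−1.10, SE 0.239, adjusted p = 0.000376) and Il27 (−0.80, SE 0.331, adjusted p = 0.0424) were lower. Of 18282 genes, 29.8% were called higher and 28.1% lower. Single IgG libraries decided some of these values. Without the IgG LPS library Csf2 was −0.70 (adjusted p = 0.466), Osm 2.80 and Il27 −0.23 (adjusted p = 0.653). Without the IgG LPS+TM7nox library Lif was 1.92 (adjusted p = 0.0561), Csf2 −2.73 and Il27 −0.81 (adjusted p = 0.121). Without the IgG DMSO library Lif was 3.26. With DESeq2 Csf2 was not called (−1.64, adjusted p = 0.0809).

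With the replicate block Il6 was called higher (1.14, adjusted p = 0.000111) and Il27 was not called (−0.43, adjusted p = 0.242). Il27 also lost its call without RIP LPS replicate 1, 2, 3 or 4 or RIP LPS+TM7nox replicate 2, with values of −0.79 to −0.72 and adjusted p-values of 0.0545 to 0.0816, and with DESeq2's size factors (−0.76, adjusted p = 0.0552), DESeq2 (−0.66, adjusted p = 0.131) or replicate 3 alone (−0.36, adjusted p = 0.0765). All IgG libraries are replicate 3, so antibody and replicate number are partly tied. Il6 (0.27, SE 0.387, adjusted p = 0.577), Il10 (0.65, SE 0.390, adjusted p = 0.161) and Il23a (0.51, SE 0.529, adjusted p = 0.421) were not called without the block.

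Whether the RIP over RNA ratio itself changed was tested as an interaction. From DMSO to LPS, 6 of 14311 genes (0.0419%) were called by edgeR and none of the members was. An unadjusted p under 0.05 was reached by 4 members and by 7.27% of all genes, and DESeq2 called 67 genes and 0 members. These 4 were Il27 (−2.002, SE 0.653), Osm (−1.46, SE 0.516), Lif (2.96, SE 1.16) and Csf3 (−1.38, SE 0.591), whose adjusted p-values in edgeR were 0.481 to 0.631. With the replicate block Il27 (−2.15, adjusted p = 0.0298) and Osm (−1.48, adjusted p = 0.0440) were called lower. From LPS to LPS+TM7nox, 1 gene was called by edgeR (0.00699%) and 3 by DESeq2, with 0 members by either. No member reached an unadjusted p under 0.05, against 5.39% of all genes. The estimates for this second change were 1.27 ± 0.917 (SE) for Csf2, −0.64 ± 0.452 for Csf3, 0.57 ± 0.463 for Osm, 0.56 ± 1.03 for Lif and 0.07 ± 0.518 for Il10. The call of Osm in the RIP and not in total RNA is therefore not shown to be a difference between the assays.

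Other genes of the pathway were read from lists of receptors, related cytokines, kinases and STATs, STAT3 and STAT5 targets, transcription factors and RNA-binding regulators. Of 14 receptor genes, 9 were tested in total RNA, and 2 rose and 2 fell in LPS, beside 20.2% and 21.7% of all genes. LPS raised Il10ra, the ligand-binding chain of the interleukin-10 receptor (log2 fold change 2.42, SE 0.156, adjusted p = 3.39e-08), and Csf2rb, the common beta chain that GM-CSF uses (1.37, adjusted p = 4.04e-05). It lowered Il6ra (−1.31, adjusted p = 0.00572) and Il6st, which encodes gp130 (−0.76, adjusted p = 0.000326). With TM7nox added to LPS, 2 fell and 1 rose, beside 6.40% and 7.37% of all genes: the first pair fell (Il10ra −0.82, adjusted p = 0.00183; Csf2rb −0.97, adjusted p = 0.00258) and Il6st rose (0.82, adjusted p = 0.000897). Lifr and Osmr, which encode chains of the receptors for Lif and oncostatin M, were not tested and averaged at most 0.234 CPM in total RNA.

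Among the STAT3 and STAT5 targets, 8 of 9 were tested and all 8 were higher in LPS, where 20.2% of all genes were. The feedback inhibitor Socs3 had a log2 fold change of 8.49 (SE 0.294, adjusted p = 4.47e-10). Cish, another such inhibitor, had 0 counts in all 4 DMSO libraries and 1.58 ± 0.482 CPM in LPS, so it passed the filter through its LPS libraries. Il4ra averaged 0.568 ± 0.532 CPM in DMSO and may have passed in the same way. The count of 8 is therefore given as a description. With TM7nox 5 of these 8 fell and 0 rose, beside 6.40% and 7.37% of all genes, and the list's median was −1.21 against −0.0026 for all genes tested. Socs3 went from 804 ± 37.1 to 243 ± 30.4 CPM (SD, n = 4 each; log2 fold change −1.72, SE 0.210, adjusted p = 0.000118). Il4ra fell by 2.30 (adjusted p = 0.00640) and Bcl3, an IkappaB family member, by 1.52 (adjusted p = 0.000133). In the RIP 4 of 8 fell, beside 7.61% of all genes, among them Il4ra (−2.71), Bcl3 (−1.87) and Socs3 (−1.81).

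Of the kinases and STATs, 6 of 8 tested rose in LPS, beside 20.2% of all genes, including Jak2 (2.90), Stat3 (2.49) and Stat5a (2.11). With TM7nox Stat3 (−0.86, SE 0.119, adjusted p = 0.000297) and Stat5a (−0.95, SE 0.273, adjusted p = 0.0325) fell and none rose, beside 6.40% and 7.37% of all genes. The Stat5a call was lost without RNA LPS replicate 2, 3 or 4 or RNA LPS+TM7nox replicate 2 (−0.96 to −0.88, adjusted p = 0.0686 to 0.0849). Only 2 of 13 related cytokines were tested. Csf1, at 0.314 ± 0.228 CPM in DMSO and 29.7 ± 1.33 CPM in LPS, was higher in LPS (log2 fold change 6.19, adjusted p = 5.39e-09). It passed the filter through its LPS or LPS+TM7nox libraries, so this result is a description. Il19, an interleukin-10 relative, had 0 counts in all 4 DMSO libraries and stood at 0.796 ± 0.315 CPM in LPS, through which it passed the filter (adjusted p = 0.00103). With TM7nox it was lower, at 0.0395 ± 0.0791 CPM (adjusted p = 0.0138).

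Of 11 transcription factors known to act on promoters of these cytokines, 10 were tested and all 10 rose in LPS, beside 20.2% of all genes, led by Nfkbiz (6.07), Cebpd (4.19) and Maf (2.96). With TM7nox Maf, a factor known to act on the Il10 promoter, went from 71.3 ± 24.7 to 4.04 ± 2.19 CPM (log2 fold change −4.14, SE 0.668, adjusted p = 0.000974). Cebpd fell by 1.64 (adjusted p = 3.64e-05) and Rela, a subunit of NF-kappaB, rose by 0.44 (adjusted p = 0.0105). Irf1 was also called lower (−0.77, adjusted p = 0.0480), but in 9 of 12 fits that left out 1 library it was not.

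Of 12 RNA-binding regulators, 6 rose in LPS and 3 fell, beside 20.2% and 21.7% of all genes. Those that rose most were Zc3h12a, which encodes the endonuclease Regnase-1 (4.54), Zfp36 (4.53) and Arid5a, whose product protects Il6 mRNA (3.67). With TM7nox 0 rose and 3 fell, beside 7.37% and 6.40% of all genes: Zfp36l1 (−1.40, adjusted p = 0.0147), Zc3h12a (−0.58, adjusted p = 0.0397) and Hnrnpd (−0.51, adjusted p = 0.00828). The Zc3h12a call was lost in 9 of 12 fits that left out 1 library. Of the pathway genes named here for TM7nox in total RNA, Maf (adjusted p = 0.0389) and Cebpd (adjusted p = 0.0274) were the ones still called with replicates 1 and 2 alone. In RIP over RNA in LPS, 9 of the 12 were higher and 1 lower, beside 32.9% and 30.8% of all genes, with Elavl1 first at a log2 ratio of 5.07 (SE 0.247, adjusted p = 4.55e-15). Against the same shares, receptors had 3 higher and 3 lower of 10 tested, kinases and STATs 3 and 2 of 8, targets 3 and 3 of 9 and transcription factors 3 and 3 of 10.

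For each tested member the genes with the most similar profile of log2 CPM over 12 libraries of an assay were looked up, as a description. The 12 libraries fall into the same 3 treatments and are not independent points. In total RNA, Il10 was closest to H2-T22 (Pearson r = 0.989) and Bcl3 (0.989), Csf3 to Acod1 (0.997) and Ccl5 (0.992), Csf2 to Sfr1 (0.989) and Nfkbiz (0.985), and Il6 to Tmco3 (0.986) and Hilpda (0.986). Il27 was closest to Slfn1 and Usb1 (both 0.997), Osm to Eif6 (0.997) and Grap (0.992), and Lif to Tyk2 (0.976) and Cd86 (0.972). In the RIP the gene closest to Csf2 was another member, Lif (0.986), and Csf3 and Il27 were both closest to Nos2 (0.997 and 0.996).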

How the data were processed

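RNA came from cell pellets (total RNA) or from antibody beads (RIP and IgG), and 7 ng went into libraries of a stranded kit, per the labels' protocols. What the authors deposited is a single table of counts per gene with no normalization, per the file headers and the whole-number values. The submitters' processing notes name FastQC 0.11.9, STAR, HTSeq, DESeq2 and GRCm39.

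Differences in counts were tested two-sided with the quasi-likelihood method of edgeR 4.0.16 (R 4.3.3), after TMM scaling and a filter, filterByExpr at min.count 10, with Benjamini-Hochberg adjustment across every gene that passed it. CPM values share 1 TMM scale over 27 libraries, and log2 CPM used a prior count of 2. All adjusted p-values come from this test unless another is named, and SE is the log2 fold change over the root of F. This test compared group means without the replicate number, so its p-values and SE leave out any pairing of libraries. The 12 RNA, the 12 RIP, the 24 RNA and RIP, and the 15 RIP and IgG libraries were fitted separately. Alternatives were a replicate block, DESeq2 1.42.0, its size factors in edgeR, no filter, replicates 1 and 2 or 3 and 4 alone, only the groups compared and each library left out. Replicate numbers were taken to pair libraries only for the replicate block and for values given by same-numbered pairs. Deviations of same-numbered libraries correlated at 0.111 or more in 12 of 15 pairs of groups, which include every pair compared. Many different-numbered libraries correlated below 0, but some correlated more than same-numbered ones. RNA LPS replicate 3 had 0.208 with RNA LPS+TM7nox replicate 4 and 0.175 with replicate 3. RIP DMSO replicate 2 had 0.151 with RIP LPS+TM7nox replicate 1 and 0.114 with replicate 2. The correlations therefore do not settle whether the numbers mark pairs. Exon lengths and untranslated regions came from GENCODE M39, which held 93.2% of the table's IDs. The scripts were tested on simulated data.

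The members and lists were chosen with earlier results of these data known. Named genes were the members, the called list genes with the largest change, up to 3 per direction, and the 2 genes most like each member. Lifr and Osmr were named outside this rule, after their values were seen.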

Additional observations from a re-analysis of the deposited data

Results flagged for a closer look

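The CPM of each member was examined within each group of 4 libraries for a library whose distance from its nearest neighbour was large against the group's range, and 4 of 57 groups examined had one. Chance flags about 1 in 20 groups. In the RIP of DMSO, Il27 in replicate 4 stood at 1.26 CPM, above 0.643 to 0.727 CPM in the other replicates. In LPS total RNA, Ebi3 in replicate 1 stood at 6.97 CPM, below 10.8 to 11.01 CPM in the others. The other two concern Il12b, which did not pass the filter on low counts. It stood at 0.0661 CPM (2 counts) in RIP DMSO replicate 2 and at 0.0399 CPM (1 count) in RIP LPS+TM7nox replicate 3, with 0 counts in the remaining libraries of those groups. Where 1 library alone has counts, its distance from the others equals the range whatever its value, so the groups of Il12b are not to be set against chance.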

How the results depend on the processing

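Over 106 single-gene results of the members, of which 61 were called, 2529 alternative values gave the same direction and side of the threshold 2368 times, lost the call 57 times, gained one 29 times and changed sign 75 times. None of the sign changes concerned a value that was called on either side. For 81 results of the pathway genes, 1767 of 1886 alternatives were the same, 119 lost the call and 0 changed sign. The cause of these changes was not tested, beyond the smaller number of libraries in some settings. With replicates 1 and 2 alone, the genes called fell to 1668 for RNA LPS against DMSO, 2246 for RNA LPS+TM7nox against DMSO and 3392 for RIP LPS against DMSO. For LPS+TM7nox against LPS in total RNA, 1704 genes were called. The replicate block gave 3091, replicates 1 and 2 alone 168 and replicates 3 and 4 alone 3489. Of 2 members called there, the block and replicates 3 and 4 alone each gave 5, no filter 4, replicates 1 and 2 alone 0, and leaving out 1 library 1 to 3. For the same contrast in RIP, 2212 genes were called, against 4577 with the replicate block, 789 with replicates 1 and 2 alone and 1070 with 3 and 4 alone. Of 5 members called there, replicates 1 and 2 alone gave 3, 3 and 4 alone 2, and leaving out 1 library 3 to 5. For RIP over RNA, leaving out 1 library gave 2 to 4 members in DMSO, and replicates 1 and 2 alone gave 3 in LPS. For the change of RIP over RNA with LPS, 6 genes became 50 with the block, 49 with no filter, 67 with DESeq2, 0 with replicates 1 and 2, 13 with 3 and 4, and 4 to 11 with 1 library left out, and 0 members became 2 with the block and 3 with no filter. For the change with TM7nox, 1 gene became 2 with the block, 5 with no filter, 3 with DESeq2, 0 with either pair of replicates alone, and 1 to 3 with 1 library left out.

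With TM7nox in the RIP, Csf2 was −0.12 with replicates 1 and 2 alone, Il6 0.049 with 3 and 4 alone, and Lif −0.026 with the replicate block, which pairs same-numbered libraries, and −0.54 with replicates 1 and 2 alone. For RIP over RNA, Il10 was −0.16 in DMSO and −0.084 in LPS with replicates 3 and 4 alone, and −0.049 in LPS+TM7nox with 1 and 2 alone. Il23a in LPS was 0.12 with DESeq2's size factors or DESeq2, 0.32 with replicates 1 and 2 and 0.025 with only the groups compared. Il23a in LPS+TM7nox was 0.035 with the block, 0.20 with DESeq2's size factors or DESeq2, 0.0051 with replicates 3 and 4 and 0.16 with only the groups compared. For the change of the ratio with LPS, Ebi3 was −0.0046 with replicates 1 and 2 and Il10 0.076 with 3 and 4. For the change with TM7nox, Il10 was −0.0036 with no filter and −0.21 with replicates 1 and 2, and Il23a −0.076 and −0.37.

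Leaving out 1 library changed the sign of some values. With TM7nox in total RNA the range was −0.68 to 0.10 for Lif, and in the RIP it was −0.0013 to 0.90 for Csf2, −0.70 to 0.31 for Il6 and −0.72 to 0.70 for Lif. For RIP over RNA it was −0.72 to 0.93 for Il10 and −0.0018 to 2.73 for Il6 in DMSO, −0.22 to 0.25 for Il10, −0.58 to 0.37 for Il23a and −0.025 to 0.61 for Il6 in LPS, and −0.17 to 0.70 for Csf2 and −0.34 to 0.33 for Il23a in LPS+TM7nox. For the change of that ratio it was −0.82 to 0.83 for Il10 and −2.40 to 0.34 for Il6 with LPS, and −0.091 to 0.44 for Il10, −0.38 to 0.62 for Il23a, −0.14 to 0.89 for Il6, −0.42 to 1.01 for Lif and −0.15 to 0.53 for Il27 with TM7nox. For anti-HuR against IgG it was −0.059 to 0.73 for Il6. Il12b had at most 12 counts over any group of 4 libraries and did not pass the filter on low counts. Without that filter it was called in RNA LPS+TM7nox against DMSO, where the members called went from 9 to 10. The DMSO values of most members rest on few counts.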
